A study of Homo sapiens with 18 samples.

Results

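The report concerns 7 genes of the plasma-cell programme: the transcription factors PRDM1, IRF4 and XBP1, the surface proteoglycan SDC1, and the secretory-pathway genes MZB1, FKBP11 and DERL3. They were chosen by gene symbol. Their Ensembl identifiers are ENSG00000057657 for PRDM1, ENSG00000137265 for IRF4, ENSG00000100219 for XBP1, ENSG00000115884 for SDC1, ENSG00000170476 for MZB1, ENSG00000134285 for FKBP11 and ENSG00000099958 for DERL3. All 7 were found among the 17155 genes of the deposited table, and all 7 passed the filter on low values that left 12381 genes for testing. The cells were GM12878, a human B-cell line immortalised by Epstein-Barr virus, with the genotype label wildtype LMP1 in every library. LMP1 is the viral membrane protein that keeps NF-κB signalling switched on in such lymphoblastoid cells. Stable lines were made by lentiviral delivery of a single guide RNA against cRel, p50, p52, RelA or RelB, the NF-κB subunits encoded by REL, NFKB1, NFKB2, RELA and RELB. The control line carried a non-targeting construct labelled pxpr, and every line went through 5 days of puromycin at 3 µg/ml. Each of the 6 groups had 3 polyA RNA-seq libraries, called biological replicates in the labels. The sources used here do not say whether a line was 1 clone or a pool, nor whether replicates were separate cultures. The p-values therefore reflect the spread among these libraries alone, which may be technical.

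B cells become antibody-secreting plasma cells when a small set of transcription factors takes over from the B-cell programme. IRF4 starts the change and is also needed for the survival of lymphoblastoid lines, PRDM1 encodes Blimp-1, a repressor that shuts off B-cell genes, and XBP1 drives expansion of the endoplasmic reticulum. XBP1 protein becomes an active factor after the stress sensor IRE1, encoded by ERN1, splices its mRNA, and a count of reads per gene cannot tell the spliced form from the unspliced. SDC1 encodes CD138, the surface marker by which plasma cells are recognised. MZB1 is a resident of the endoplasmic reticulum that helps antibody assembly and secretion, FKBP11 belongs to the FK506-binding family of peptidyl-prolyl isomerases, and DERL3 takes part in the degradation of misfolded proteins of the endoplasmic reticulum.

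Of the 7 genes, 6 had annotated promoters in RefSeq (build GRCh38.p14), and DERL3 had none. The 250 bases upstream of each of their 10 transcription starts formed a window, which was searched on both strands for 7 known motifs. Only 3 windows held a match, and they are shown because they belong to XBP1, to the repressor gene PRDM1 and to the secretory gene MZB1. The upstream window of XBP1 lies at chr22:28800570-28800819 on the minus strand, that of PRDM1 at chr6:106086086-106086335 on the plus strand, and that of MZB1 at chr5:139389914-139390163 on the minus strand. Each is printed in the 5′ to 3′ direction of its gene, with the matched letters in capitals.
XBP1: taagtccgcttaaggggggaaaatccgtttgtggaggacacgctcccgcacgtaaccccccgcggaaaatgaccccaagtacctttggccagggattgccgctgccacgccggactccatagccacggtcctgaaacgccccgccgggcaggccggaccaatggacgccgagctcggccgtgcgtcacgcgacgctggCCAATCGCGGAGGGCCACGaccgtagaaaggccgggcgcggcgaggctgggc
PRDM1: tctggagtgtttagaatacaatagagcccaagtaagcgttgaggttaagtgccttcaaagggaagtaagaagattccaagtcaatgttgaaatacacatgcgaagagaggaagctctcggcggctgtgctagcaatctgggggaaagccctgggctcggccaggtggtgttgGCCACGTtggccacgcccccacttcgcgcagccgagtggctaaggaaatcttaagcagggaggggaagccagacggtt
MZB1: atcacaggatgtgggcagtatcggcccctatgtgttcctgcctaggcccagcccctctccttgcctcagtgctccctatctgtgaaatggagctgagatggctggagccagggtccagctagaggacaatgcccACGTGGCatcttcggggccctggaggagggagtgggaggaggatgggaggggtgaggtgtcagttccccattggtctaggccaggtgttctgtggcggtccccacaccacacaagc

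The capitals in the XBP1 window match the endoplasmic reticulum stress element, CCAAT and CCACG with 9 bases between, which ATF6 and XBP1 are known to bind, and begin 52 bases before the transcription start. This element was present in 0.0740% of the 35116 promoter windows searched. The capitals in the PRDM1 and MZB1 windows match the XBP1 core motif, GCCACGT, which shares the letters CCACG with the stress element. In PRDM1 the match is on the gene's own strand and begins 78 bases before the start, and in MZB1 it is on the opposite strand and begins 116 bases before it. The core motif occurred in 2.78% of all windows. No window of the 6 genes held the NF-κB consensus, present in 5.21% of all windows, the tandem IRF motif of GAAA, 2 bases and GAAA (3.02%), the ETS-IRF composite of GGAA, 2 bases and GAAA (2.41%), the unfolded-protein response element TGACGTGG (0.612%) or the second stress element, ATTGG and CCACG with 1 base between (0.0513%). These matches describe letters within 250 bases only, and binding was not measured.

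The libraries held 15179664 to 37473129 counted reads. Values are normalised read counts, the reads of a gene divided by a size factor of its library. The targeted gene checked the labels of 3 lines: NFKB1 averaged 4685 ± 56.4 in p50 knockout libraries and 7066 ± 305 in control libraries, NFKB2 averaged 6320 ± 172 in p52 knockout and 8566 ± 138 in control libraries, and RELA averaged 1368 ± 35.4 in RelA knockout and 2208 ± 31.6 in control libraries (SD, n = 3 each, as throughout). Of these genes, RELA fell in the RelA knockout alone, whereas NFKB1 also fell in the RelA knockout and the RelB-labelled libraries (log2 fold changes -0.46 and -0.29) and NFKB2 also fell in the RelA knockout, to 6671 ± 226 (-0.36). RELB was higher in the libraries labelled RelB knockout, at 4107 ± 170, than in control libraries, at 3319 ± 158, which goes against the label at the level of mRNA. This rise was not particular to that line, as RELB also rose in the cRel-labelled, p52 and p50 lines (log2 fold changes 0.38, 0.36 and 0.23). RELB was lowest in the RelA knockout, at 1887 ± 127. REL was 1282 to 1315 in the libraries labelled cRel knockout, against 1554, 1717 and 856 in control libraries 1, 2 and 3. Its lowest group was the RelB-labelled libraries, at 938 ± 65.1 (log2 fold change -0.49, adjusted p = 0.024, limma), which overlapped with control. A guide-directed edit can remove a protein without lowering its mRNA, and the labels describe a protein check by immunoblot, so these lines are called RelB-labelled and cRel-labelled. Control library 3 stood apart from control libraries 1 and 2. Across genes its deviation from the mean of its group fell with transcript length (Spearman -0.452), against 0.242 and 0.364 in those libraries. The deviations of a group's libraries depend on each other. Control library 3 was not alone, as the value was -0.380 in p52 library 3 and -0.314 in RelA library 2. It also had the highest control values of MZB1, FKBP11 and DERL3 and the lowest of IRF4. Calls of the 7 genes and counts of the lists described below that are lost, or that move by over 1.5 times, without control library 3 are therefore named. All 10 B-cell markers were present in every group, with summed shares of 0.599 to 0.730% of all values. Of the T-cell, NK-cell and monocyte markers, NKG7, CSF1R and ITGAM were expressed. GNLY and CD3E also passed the filter, at low values that reached 49.2 and 26.8 in the highest library. LYZ, CD2, CD247 and KLRD1 did not pass it and reached 15.7, 15.3, 14.97 and 14.7. S100A8, S100A9 and MPO did not exceed 8.06, 5.78 and 4.52 in any library. CD3D and CD14 did not exceed 1.63 and 3.16, and 4 others were not analysed here. In bulk RNA, fewer cells of a type and less RNA per cell cannot be told apart.

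PRDM1 was the most variable of the 7 genes, with a 3.87-fold span between the highest and lowest group mean. It fell in 4 of the 5 lines and rose in the RelA knockout. PRDM1 had 689.7, 665 and 738 normalised read counts in cRel-labelled libraries, 419, 420.3 and 475 in p50 knockout, 357, 451 and 329.7 in p52 knockout, 1123, 1294 and 1119 in RelA knockout and 315, 284 and 314 in RelB-labelled libraries, against 830.4, 979 and 899.7 in control libraries. None of the 5 lines overlapped with control. The RelB-labelled libraries, at 304 ± 17.7, and the p52 knockout, at 379 ± 63.5, lay lowest, against 903 ± 74.3 in control libraries.

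By the moderated test of limma, fitted over all 12381 genes with Benjamini-Hochberg adjustment and a threshold of 0.05, the log2 fold change of PRDM1 was -1.56 in RelB-labelled libraries (SE 0.10, adjusted p = 8.5e-12). It was -1.26 in the p52 knockout (adjusted p = 2.3e-09, limma) and -1.04 in the p50 knockout (adjusted p = 1.2e-07, limma). The smaller changes were -0.37 in cRel-labelled libraries (adjusted p = 0.025, limma) and 0.38 in the RelA knockout (adjusted p = 0.022, limma). Without control library 3, these 2 smaller changes kept their size, at -0.37 and 0.38, and no longer passed the test (adjusted p = 0.068 and 0.057, limma). The cRel call was also lost without cRel library 1 or 2 or control library 2, and the RelA call without RelA library 2 or control library 1. The groups stood in the order RelA knockout, control, cRel-labelled, p50 knockout, p52 knockout and RelB-labelled, and all neighbours in it differed except p50 and p52 (adjusted p = 0.12, limma; 0.013 without p52 library 2). The lowest step, p52 knockout over RelB-labelled, was 0.30 on the log2 scale (adjusted p = 0.015, limma) and 0.17 without p52 library 2 (adjusted p = 0.15). It was also lost without RelB-labelled library 2 and in a fit of these 2 groups alone. The plot of the 3 transcription factors shows every library.

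**Figure D1:**
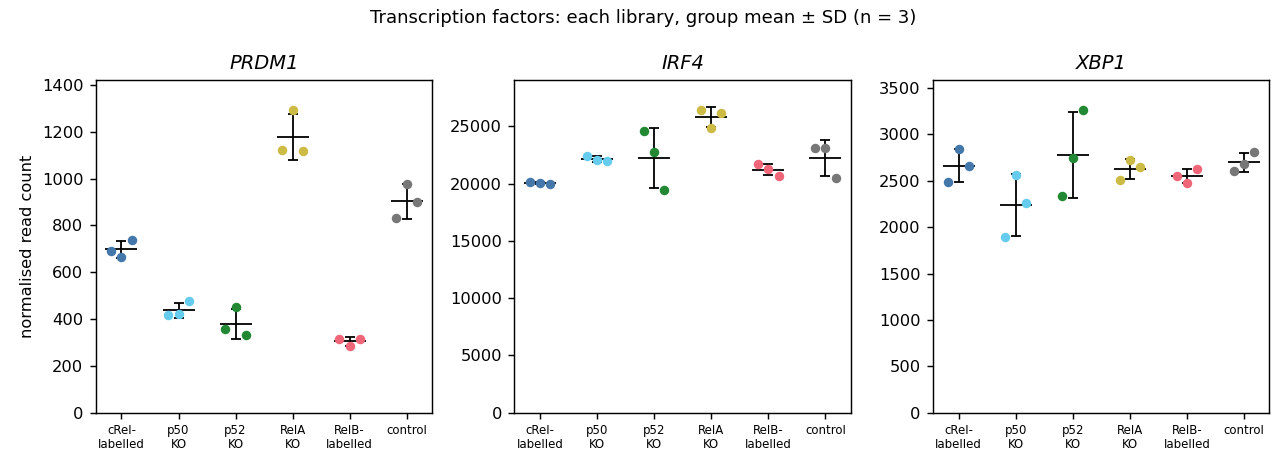
Normalised read counts of PRDM1, IRF4 and XBP1 in each of the 18 libraries (points), with the mean and SD of each group of 3 (lines), on linear axes from 0. PRDM1 lay between 284 and 315 in RelB-labelled libraries and between 1119 and 1294 in RelA knockout libraries, whereas the IRF4 groups spanned 1.29-fold and the XBP1 groups 1.24-fold.

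IRF4 was the most abundant of the 7 genes and passed the test against control in no line. Per kilobase of exon its mean level over all libraries was 3779.6 normalised read counts. By the same measure MZB1 had 989.7, XBP1 857, SDC1 385, DERL3 142, FKBP11 133 and PRDM1 102. The exons of all annotated transcripts were joined for this, so the order between genes depends on the annotation. IRF4 had 20148, 20103 and 19937 normalised read counts in cRel-labelled libraries, 22424, 22029 and 21996 in p50 knockout, 24573, 22757 and 19417 in p52 knockout, 26442, 24834 and 26146 in RelA knockout and 21748, 21256 and 20715 in RelB-labelled libraries, against 23114, 23161 and 20459 in control libraries. The RelA knockout lay above control and the cRel-labelled libraries below it, both without overlap, and the other 3 lines overlapped with control. The log2 fold change was 0.22 in the RelA knockout (SE 0.07, adjusted p = 0.088, limma) and -0.15 in cRel-labelled libraries (adjusted p = 0.25). The RelA difference passed under DESeq2 (0.22, adjusted p = 0.036), and without control library 3, the lowest control, it was 0.16 (adjusted p = 0.35, limma). It passed without p52 library 3 (adjusted p = 0.023), which took no part in the difference itself.

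Between lines, IRF4 was higher in the RelA knockout than in each of the other 4. Its log2 difference was 0.36 over cRel-labelled libraries (adjusted p = 0.0013, limma) and 0.28 over RelB-labelled libraries (adjusted p = 0.0016). It was 0.22 over both the p50 and the p52 knockout (adjusted p = 0.019 and 0.013, limma). The p50 comparison was lost without p50 library 3 or RelA library 1 or 3 and under quantile normalization (adjusted p = 0.082), and the p52 comparison without p52 library 3 or RelA library 1 and in a fit of these 2 groups alone (adjusted p = 0.058). No other pair of lines passed for IRF4 in the fit of all libraries. The difference of cRel-labelled over p52 knockout libraries was -0.14 (adjusted p = 0.11, limma) and, without p52 library 3, -0.24 (adjusted p = 0.0050). That of cRel-labelled over p50 knockout libraries, also -0.14 (adjusted p = 0.14), passed in a fit of these 2 groups alone (adjusted p = 0.037).

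XBP1 mRNA stood close to the control level in every line except the p50 knockout. XBP1 had 2491, 2841 and 2657 normalised read counts in cRel-labelled libraries, 1893, 2559 and 2263 in p50 knockout, 2336, 2746 and 3264 in p52 knockout, 2511, 2726 and 2653 in RelA knockout and 2549, 2474 and 2626 in RelB-labelled libraries, against 2609, 2686 and 2812 in control libraries. The 3 p50 knockout libraries lay below all control libraries and differed among themselves, and the p52 libraries lay on both sides of control. XBP1 fell in the p50 knockout, by 0.28 on the log2 scale (SE 0.10, adjusted p = 0.028, limma). Without p50 library 1 the difference was -0.17 (adjusted p = 0.19) and without control library 3 it was -0.25 (adjusted p = 0.082, limma), and the call was also lost without p50 library 3 or control library 2. In the other 4 lines the log2 fold change lay between -0.08 and 0.03 and did not pass the test, with 95% intervals that together reached from -0.29 to 0.23.

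SDC1 rose in the 3 lines in which PRDM1 fell most: the p50 knockout, the p52 knockout and the RelB-labelled libraries. SDC1 had 969.9, 985 and 933 normalised read counts in cRel-labelled libraries, 1705, 1673 and 1694 in p50 knockout, 1496, 1686 and 1514 in p52 knockout, 835, 809 and 785 in RelA knockout and 2281, 2344 and 2423 in RelB-labelled libraries, against 965, 923 and 889 in control libraries. The lines that rose lay above every control library, the RelA knockout lay below them all, and the cRel-labelled libraries overlapped with control. The log2 fold change was 1.34 in RelB-labelled libraries (SE 0.06, adjusted p = 4.4e-14, limma), 0.87 in the p50 knockout (adjusted p = 1.3e-09) and 0.76 in the p52 knockout (adjusted p = 2.4e-09). It was -0.19 in the RelA knockout (adjusted p = 0.064, limma) and 0.06 in cRel-labelled libraries (adjusted p = 0.62), neither of which passed.

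By level, SDC1 ordered the groups as RelB-labelled, p50 knockout, p52 knockout, cRel-labelled, control and RelA knockout. RelB-labelled libraries exceeded the p50 knockout by 0.47 on the log2 scale (adjusted p = 8.5e-07, limma), and the p52 knockout exceeded the cRel-labelled libraries by 0.70 (adjusted p = 1.2e-08, limma), while no other neighbours in the order differed. This is the order of PRDM1 turned round, apart from the p50 and p52 knockouts, which differed from each other in neither gene. The libraries lay in clusters by group in the plot of the 2 genes, so no correlation over all of them is given. The p50 and p52 knockouts did not separate: p52 library 2, with PRDM1 at 451 and SDC1 at 1686, lay within the p50 range of both genes. With the group means taken out, Pearson r of the log2 values was 0.33.

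**Figure D2:**
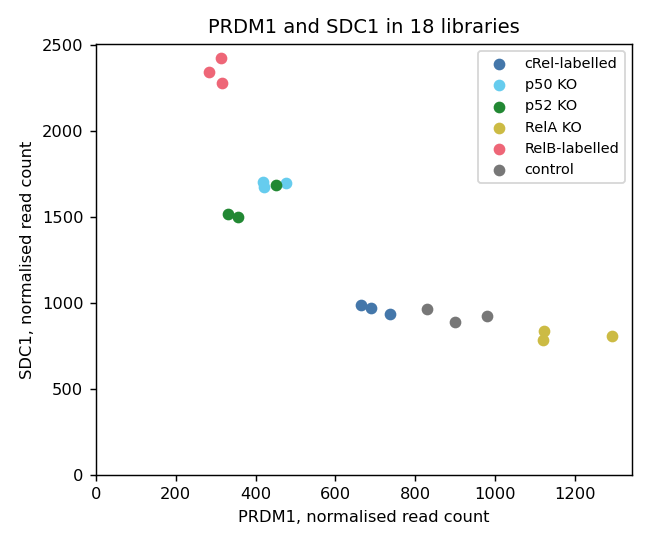
Normalised read counts of PRDM1 (x axis) and SDC1 (y axis) in 18 libraries, 1 point per library, coloured by group, on linear axes from 0. RelB-labelled libraries lay at the upper left, with SDC1 at 2281 to 2423 and PRDM1 at 284 to 315, and RelA knockout libraries at the lower right, with SDC1 at 785 to 835 and PRDM1 at 1119 to 1294.

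FKBP11 was the only one of the 7 genes whose fall passed the test in all 5 lines. Group means of DERL3 and MZB1 were also highest in control libraries, but their falls did not pass in every line. FKBP11 had 684, 642 and 654 normalised read counts in cRel-labelled libraries, 690.4, 628 and 677 in p50 knockout, 609, 546 and 587 in p52 knockout, 645, 607 and 593 in RelA knockout and 582, 668 and 649 in RelB-labelled libraries, against 765, 746 and 936 in control libraries. All 15 libraries of these lines lay below the lowest control library. The log2 fold change was -0.48 in the p52 knockout (SE 0.08, adjusted p = 4.5e-05, limma), -0.40 in the RelA knockout (adjusted p = 0.0039) and -0.36 in RelB-labelled libraries (adjusted p = 5.7e-04). It was -0.30 in cRel-labelled libraries (adjusted p = 0.032, limma) and -0.29 in the p50 knockout (adjusted p = 0.0091). Without control library 3 it was -0.20 in cRel-labelled libraries (adjusted p = 0.24, limma) and -0.19 in the p50 knockout (adjusted p = 0.080), and the fall in the p52, RelA and RelB-labelled lines still passed. The cRel call was also lost without any 1 cRel library and in a fit of the compared groups alone, and the p50 call without p50 library 2. All 5 comparisons share the same 3 control libraries, and of the 10 pairs of lines 0 passed in limma, edgeR or DESeq2, while 2 had an unadjusted p under 0.05. Without control library 3, which took no part in these differences, the cRel-labelled libraries over p52 (0.19, adjusted p = 0.033, limma) and the p50 knockout over p52 (0.20, adjusted p = 0.045) passed.

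DERL3 fell most in the p52 and p50 knockouts. DERL3 had 595, 586 and 512 normalised read counts in cRel-labelled libraries, 449.7, 447 and 439 in p50 knockout, 387, 424 and 407 in p52 knockout, 559.8, 533 and 523 in RelA knockout and 564, 631 and 631 in RelB-labelled libraries, against 581, 676 and 739 in control libraries. The p52, p50 and RelA knockout libraries lay below every control library, and the cRel-labelled and RelB-labelled libraries overlapped with them. The log2 fold change was -0.71 in the p52 knockout (SE 0.08, adjusted p = 5.3e-07, limma) and -0.57 in the p50 knockout (adjusted p = 2.4e-05). It was -0.30 in the RelA knockout (adjusted p = 0.038, limma), a call lost without control library 3 (-0.22, adjusted p = 0.22), without control library 2, without any 1 RelA library, under quantile normalization (adjusted p = 0.061) and in a fit of the compared groups alone (adjusted p = 0.11). The changes of -0.23 in cRel-labelled and -0.12 in RelB-labelled libraries did not pass (adjusted p = 0.11 and 0.20, limma). Both passed without control library 1 (adjusted p = 0.025 and 0.030, limma). The p50 knockout was also below the RelA knockout, by 0.27 on the log2 scale (adjusted p = 0.013, limma, and 0.053 without RelA library 1).

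MZB1 fell in the p50 knockout, the RelA knockout and the cRel-labelled libraries. MZB1 had 2112, 2106 and 2053 normalised read counts in cRel-labelled libraries, 2043, 1989 and 1933 in p50 knockout, 2269.6, 2072 and 2515 in p52 knockout, 2054, 2244 and 1919 in RelA knockout and 2682, 2317 and 2418 in RelB-labelled libraries, against 2478, 2341 and 2948 in control libraries. The libraries of the lines that fell lay below every control library, and those of the p52 and RelB-labelled lines overlapped with control. The log2 fold change was -0.37 in the p50 knockout (SE 0.08, adjusted p = 0.0012, limma), -0.32 in the RelA knockout (adjusted p = 0.023) and -0.30 in cRel-labelled libraries (adjusted p = 0.029). Without control library 3, the p50 change was -0.28 (adjusted p = 0.011, limma), while the RelA change of -0.22 (adjusted p = 0.16) and the cRel change of -0.20 (adjusted p = 0.21) no longer passed. The RelA call was also lost without RelA library 1 or 3 and in a fit of the compared groups alone, and the cRel call without any 1 cRel library. The changes of -0.18 in the p52 knockout and -0.06 in RelB-labelled libraries did not pass (adjusted p = 0.077 and 0.51, limma). The p52 change passed without p52 library 3 or control library 2. MZB1 was higher in RelB-labelled libraries than in the p50 knockout, by 0.31 on the log2 scale (adjusted p = 0.0030, limma).

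**Figure D3:**
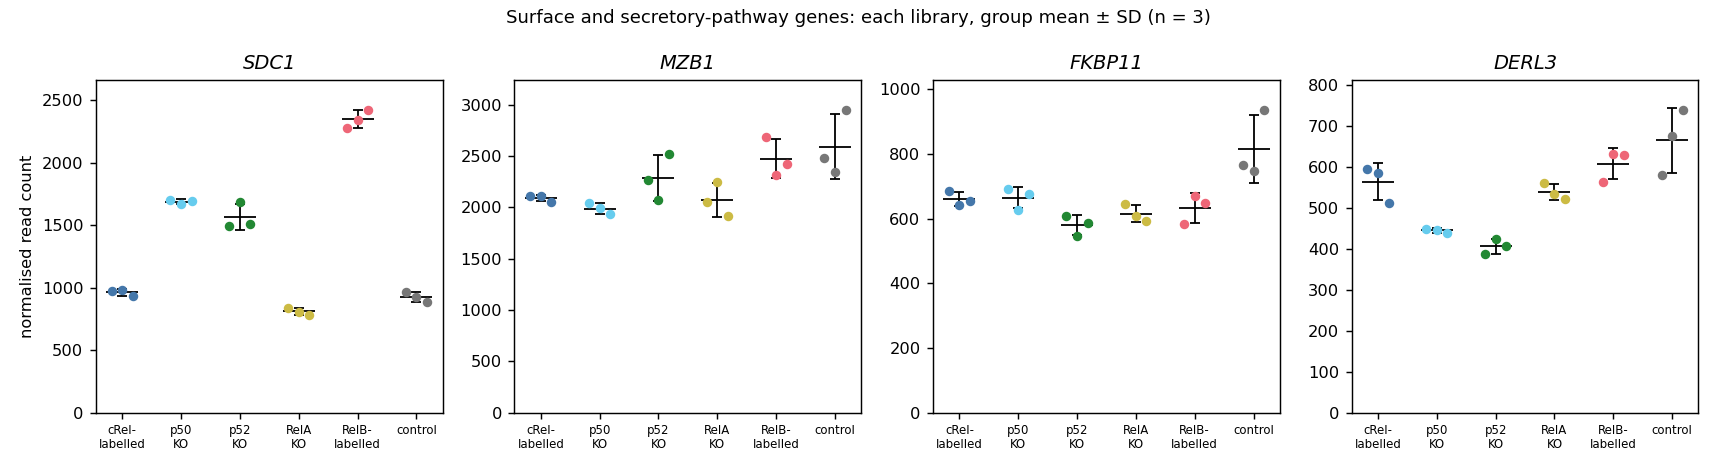
Normalised read counts of SDC1, MZB1, FKBP11 and DERL3 in each of the 18 libraries (points), with the mean and SD of each group of 3 (lines), on linear axes from 0. SDC1 stood highest in RelB-labelled libraries (2349 ± 71.5), and all 3 control libraries of FKBP11 lay above the libraries of every other group.

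Between 3 and 6 of the 7 genes passed the test against control, depending on the line. In cRel-labelled libraries 3 of 7 passed, all lower (6.09% of all tested genes passed, 4.17% higher and 1.92% lower), and in the RelA knockout 4 of 7 passed, 1 higher and 3 lower (5.55% of all genes, 2.92% higher and 2.63% lower). Without control library 3 these counts were 0 and 1 of 7. Without a cRel library the cRel count was 0 or 1, and without a RelA library the RelA count was 2. In the p50 knockout 6 of 7 passed, 1 higher and 5 lower (36.7% of all genes), and in the p52 knockout 4 of 7, 1 higher and 3 lower (50.8%). In RelB-labelled libraries 3 of 7 passed, 1 higher and 2 lower, beside 67.8% of all genes. Libraries that did not overlap with control were found for 4 of 7 in cRel-labelled libraries (26.7% of all genes), 6 in the p50 knockout (45.0%), 4 in the p52 knockout (52.5%), 6 in the RelA knockout (22.0%) and 3 in RelB-labelled libraries (70.0%). The median log2 fold change of the 7 genes was -0.23 in cRel-labelled libraries, -0.29 in the p50 knockout, -0.18 in the p52 knockout, -0.19 in the RelA knockout and -0.08 in RelB-labelled libraries, against medians between -0.02 and 0.00 over all genes. The 5 comparisons share their control libraries.

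**Figure D4:**
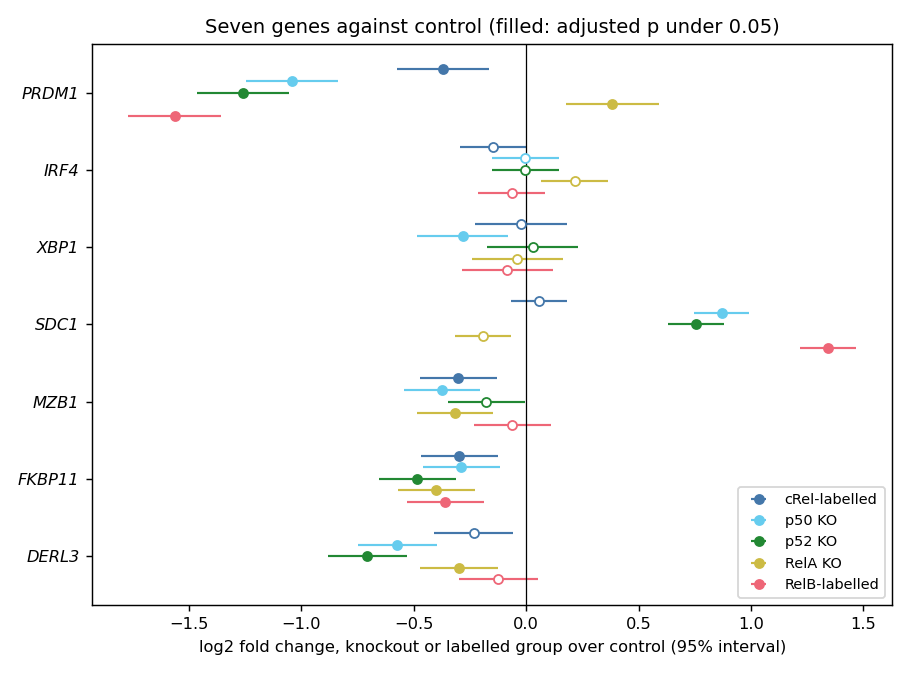
Log2 fold change of each of the 7 genes in each line over control (x axis), with its 95% interval from limma, coloured by line; filled points passed the adjusted threshold of 0.05. PRDM1 spans -1.56 to 0.38 and SDC1 -0.19 to 1.34, and the 5 FKBP11 points lie together between -0.48 and -0.29.

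Of the 15 pairs of groups, 14 differed for PRDM1, 12 for SDC1, 9 for DERL3, 6 for MZB1, 5 for FKBP11, 4 for IRF4 and 3 for XBP1 (limma). All 3 XBP1 pairs held the p50 knockout. Its difference from cRel-labelled libraries (0.26 for cRel-labelled over p50, adjusted p = 0.047, limma) kept its call under 11 of 28 alternatives and lost it with edgeR (adjusted p = 0.055), DESeq2 (0.054) and quantile normalization (0.19). Its difference from the p52 knockout (-0.31 for p50 over p52, adjusted p = 0.025, limma) kept its call under 24 of 28, and lost it without p50 library 1, without p52 library 2 or 3 and in a fit of these 2 groups alone. Over all genes, the share that differed between lines was 31.1% for cRel-labelled against p50, 45.9% for cRel-labelled against p52, 11.0% for cRel-labelled against RelA and 65.8% for cRel-labelled against RelB-labelled libraries. It was 22.2% for p50 against p52, 39.2% for p50 against RelA, 53.1% for p50 against RelB-labelled, 52.5% for p52 against RelA, 45.4% for p52 against RelB-labelled and 67.2% for RelA against RelB-labelled libraries. Of the 10 pairs of lines, PRDM1 and SDC1 each differed in 9, beside those shares. IRF4 was measured with the deepest counts, 14915 to 31655 reads a library. XBP1, with 1748 to 4534 reads, varied most within the p52 knockout (SD 465). PRDM1 rested on 216 to 1392 reads a library.

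The genes whose pattern was most like that of PRDM1 over the 18 libraries, by Pearson r of log2 values among 9846 genes, were TSN (0.98), GSPT1, ACTG1, YWHAQ and KIAA0196 (0.97 each). TSN, which encodes the nucleic acid-binding protein translin, averaged 2454 in RelB-labelled libraries and 3811 in RelA knockout libraries, against 3594 in control libraries. For IRF4 they were ASXL1 (0.89), FAM102B (0.85), ATP8B2 (0.83), NHSL1 (0.82) and ANKRD50 (0.81). For XBP1 they were DNAJC21 (0.80), PTRHD1 and PPP2R5C (0.79 each), VIMP (0.78) and ATPAF1 (0.77). The libraries share groups and normalization, and these values describe likeness alone.

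Targets of XBP1 and ATF6 in the unfolded-protein response include chaperones and translocation factors, and most of them fell in the p50 knockout, the p52 knockout and the RelB-labelled libraries, where PRDM1 also fell most. Of 33 tested genes, 22 fell and 1 rose in the p50 knockout (19.6% and 17.0% of all genes), 19 fell and 1 rose in the p52 knockout (26.4% and 24.5%), and 20 fell and 8 rose in RelB-labelled libraries (34.7% and 33.1%). Their median log2 fold change was -0.28, -0.28 and -0.32 in these lines in the same order. HSPA5, the chaperone BiP, averaged 15827 ± 492 in RelB-labelled libraries, 16536 ± 1012 in p52 knockout and 19543 ± 925 in p50 knockout libraries, against 31348 ± 1516 in control libraries. Its log2 fold change was -0.99, -0.92 and -0.68 in that order (limma, adjusted p = 9.5e-12, 4.8e-10 and 7.5e-08). CALR, the lectin chaperone calreticulin, fell by 0.90 in the p52 knockout and by 0.62 in the p50 knockout on the log2 scale. SDF2L1, a cofactor of BiP, fell by 1.15 in RelB-labelled libraries and by 0.94 in the p52 knockout, and SRPRB, a subunit of the signal recognition particle receptor, fell by 0.88 in RelB-labelled libraries. SEC61B, of the translocation channel, fell by 0.58 in the p50 knockout. In cRel-labelled libraries 1 of 33 passed in limma (1.92% of all genes fell there), SEC61B, which fell by 0.31. The number that fell there was 3 with DESeq2, and 0 without control library 3, without cRel library 2 or 3 and under quantile normalization. The 1 gene that rose in the p50 knockout did not pass without control library 3 or without p50 library 2 or 3. In the RelA knockout 0 of 33 passed in limma, edgeR or DESeq2, and 2 had an unadjusted p under 0.05.

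Among 9 stress sensors and regulators of the unfolded-protein response, ERN1, the kinase and nuclease that splices XBP1 mRNA, rose in 3 lines. ERN1 averaged 1521 ± 37.4 in RelB-labelled libraries, 1007 ± 79.7 in p50 knockout and 983 ± 55.8 in p52 knockout libraries, against 802 ± 91.8 in control libraries. Its log2 fold change was 0.93, 0.33 and 0.30 in that order (limma, adjusted p = 6.2e-10, 0.0019 and 0.0026). EIF2AK3, the stress kinase PERK, rose by 0.60 on the log2 scale in RelB-labelled libraries and by 0.29 in the p50 knockout (adjusted p = 0.016, limma), where its libraries overlapped with control, and DDIT3, the stress-induced factor CHOP, rose by 0.47 in RelB-labelled libraries. RTCB, the ligase that joins spliced XBP1 mRNA, fell by 0.28 in the p52 knockout and by 0.23 in the p50 knockout, and MBTPS1, the protease that activates ATF6, fell by 0.42 in the p52 knockout. In all, 4 rose and 3 fell in RelB-labelled libraries, 2 rose and 3 fell in the p50 knockout and 1 rose and 3 fell in the p52 knockout, with medians of 0.04, -0.10 and -0.10. The shares called were thus 77.8%, 55.6% and 44.4% of the list, beside 67.8%, 36.7% and 50.8% of all genes. In the cRel-labelled and RelA knockout libraries 0 of 9 passed in limma, edgeR or DESeq2, with 2 at an unadjusted p under 0.05 in each. Without control library 3, and likewise without p50 library 2, 1 gene rose and 1 fell in the p50 knockout; the falls there also numbered 1 without p50 library 3 or control library 2, and 0 under quantile normalization.

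Of 22 other plasma-cell genes, 15 fell and 4 rose in the p52 knockout, 12 fell and 4 rose in the p50 knockout and 11 fell and 7 rose in RelB-labelled libraries, with median log2 fold changes of -0.33, -0.33 and -0.20. Of all genes, 26.4% fell and 24.5% rose in the p52 knockout, 19.6% and 17.0% in the p50 knockout and 34.7% and 33.1% in RelB-labelled libraries, so the 7 of 22 that rose in RelB-labelled libraries lie near the share of all genes. The 4 that rose in the p50 knockout were 2 to 4 with 1 library left out. TNFRSF17, the survival receptor BCMA, averaged 2076 ± 147 in RelB-labelled and 2723 ± 641 in p52 knockout libraries, against 4183 ± 513 in control libraries (log2 fold changes -1.01 and -0.64). CCR10, a homing receptor of plasma cells, fell by 1.43 in RelB-labelled libraries, and EAF2, an elongation factor partner, fell by 0.98 there and by 0.63 in the p50 knockout. ELL2, the elongation factor that favours secreted immunoglobulin mRNA, fell by 0.61 in the p50 knockout, IGJ, the immunoglobulin joining chain, by 0.49 there, and TXNDC5, a disulfide isomerase, by 0.80 in the p52 knockout and 0.53 in the p50 knockout. The vitamin D receptor gene VDR fell by 0.81 in the p52 knockout, 0.38 in cRel-labelled libraries and 0.30 in the RelA knockout. CD9, a tetraspanin, fell by 0.99 in cRel-labelled libraries and by 0.79 in the RelA knockout. In each of those 2 lines 3 genes fell, with 1 riser in cRel-labelled libraries and 2 in the RelA knockout, and medians of -0.12 and 0.01. Of all genes, 1.92% fell and 4.17% rose in cRel-labelled libraries, and 2.63% fell and 2.92% rose in the RelA knockout. The 1 of 22 that rose in cRel-labelled libraries lies near the share of all genes. POU2AF1, a B-cell coactivator, rose by 0.37 in cRel-labelled libraries, and ITM2C by 0.38 in the RelA knockout. With 1 library left out, the RelA counts were 0 to 2 higher and 1 to 3 lower, and without control library 3 the number higher was 1.

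The B-cell genes that are switched off during plasma-cell formation did not move in 1 direction. Of 21 tested, 10 rose and 7 fell in RelB-labelled libraries, 6 rose and 7 fell in the p52 knockout, 4 rose and 4 fell in the p50 knockout, 5 rose and 3 fell in cRel-labelled libraries and 2 rose and 3 fell in the RelA knockout. The median log2 fold change was 0.11, -0.05, -0.06, 0.08 and -0.05 in that order. The shares called were 81.0%, 61.9%, 38.1%, 38.1% and 23.8% of the list, beside 67.8%, 50.8%, 36.7%, 6.09% and 5.55% of all genes, and in the p50 knockout the share of the list lies near that of all genes. BCL6, the germinal-centre repressor that opposes PRDM1, averaged 37.6 ± 4.33 in RelB-labelled libraries, against 237 ± 38.3 in control libraries, a log2 fold change of -2.62 (adjusted p = 1.6e-12, limma). BCL6 also fell by 0.42 in the p50 knockout and rose by 0.90 in cRel-labelled libraries. MYC, which Blimp-1 is known to repress, averaged 19785 ± 439 in RelB-labelled libraries, against 7780 ± 382 in control libraries (log2 fold change 1.35, adjusted p = 1.3e-11, limma). ID3, an inhibitor of E proteins, fell by 1.32 in RelB-labelled libraries and 1.03 in the p52 knockout on the log2 scale. BLK, a Src-family kinase, rose by 0.88 in the p52 knockout and 0.49 in the p50 knockout. In the RelA knockout CD83 fell by 0.81 and CIITA, the class II transactivator and another known Blimp-1 target, rose by 0.35. SWAP70 fell by 0.58 in cRel-labelled libraries and by 0.47 in the RelA knockout. With 1 library left out, 0 to 2 of these genes rose and 2 or 3 fell in the RelA knockout, and 0 rose there without control library 3.

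**Figure D5:**
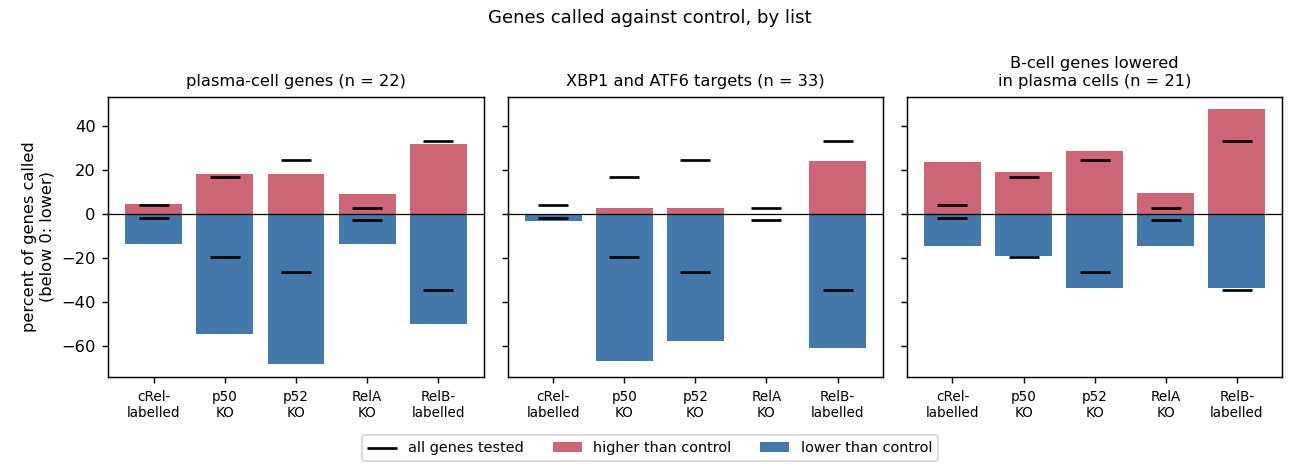
Percent of the genes of 3 lists that were higher (above 0) or lower (below 0) than control by limma at an adjusted threshold of 0.05, for each line (x axis); black marks give the same percent over all 12381 tested genes. The lower bars of the XBP1 and ATF6 targets reach 22 of 33 genes in the p50 knockout, 19 in the p52 knockout and 20 in RelB-labelled libraries, and none in the RelA knockout.

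IRF4 acts with partner factors of the AP-1, ETS and Ikaros families. Of 11 partners, 4 rose and 4 fell in RelB-labelled libraries, 3 rose and 4 fell in the p52 knockout, 2 rose and 5 fell in the p50 knockout, 2 rose and 1 fell in cRel-labelled libraries and 1 rose and 1 fell in the RelA knockout. The shares called were 72.7%, 63.6%, 63.6%, 27.3% and 18.2% of the list, beside 67.8%, 50.8%, 36.7%, 6.09% and 5.55% of all genes, so that in RelB-labelled libraries the partners lie near the share of all genes. The median log2 fold change was 0.16, -0.06, -0.20, -0.07 and 0.01 in that order. With control library 3 left out, 1 rose and 3 fell in the p50 knockout and 0 fell in the cRel-labelled and RelA lines (limma). The 4 risers in RelB-labelled libraries were 2 without RelB-labelled library 2, and the 2 in the p50 knockout were 0 without p50 library 3 or control library 2. IKZF1, encoding Ikaros, fell by 0.69 on the log2 scale in the p52 knockout and by 0.57 in RelB-labelled libraries. The AP-1 partner BATF3 fell by 0.54 in RelB-labelled libraries, 0.52 in the p52 knockout and 0.32 in the p50 knockout, and BATF fell by 0.36 in cRel-labelled libraries. JUNB fell by 0.77 in the p50 knockout. It also fell by 0.31 in the RelA knockout (adjusted p = 0.036, limma), where its libraries overlapped with control, and this call was lost without RelA library 1 or 3 or control library 2 or 3, under quantile normalization, with the length correction and in a fit of the compared groups alone. JUND fell by 0.57 in RelB-labelled libraries. JUN rose by 0.78 in the RelA knockout, with 388 ± 17.0 there and 228 ± 44.6 in control libraries, and fell by 0.54 in the p50 knockout. The ETS factor SPIB rose by 0.41 in the p52 knockout and 0.23 in cRel-labelled libraries, and IRF8 rose by 0.30 in cRel-labelled libraries.

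The relatives of the 7 genes gave a mixed picture. In the other FK506-binding and derlin genes, 6 of 12 fell and 0 rose in the p50 knockout by limma (1 rose with edgeR and with DESeq2, and 7 had an unadjusted p under 0.05), 8 fell and 2 rose in the p52 knockout and 5 fell and 3 rose in RelB-labelled libraries, with medians of -0.19, -0.21 and -0.15. The shares called were 50%, 83.3% and 66.7% of the list, beside 36.7%, 50.8% and 67.8% of all genes. Of these, DERL2 fell by 0.72 in RelB-labelled libraries and 0.41 in the p50 knockout, DERL1 by 0.33 in the p50 knockout, FKBP4 by 0.43 in the p52 knockout, and FKBP3 by 0.68, 0.63 and 0.41 in the RelB-labelled, p52 and p50 lines. FKBP14 rose by 1.02 in RelB-labelled libraries and FKBP8 by 0.36 in the p52 knockout. In cRel-labelled and RelA knockout libraries 0 of 12 passed in limma, edgeR or DESeq2, with 3 and 2 at an unadjusted p under 0.05. The adaptor SDCBP, known as syntenin, which binds the tail of SDC1 protein, rose with SDC1: by 0.84 in RelB-labelled libraries, 0.73 in the p52 knockout and 0.41 in the p50 knockout. The 3 tested genes of the syndecan list were SDC2, SDC4 and SDCBP itself. In the RelB-labelled and p50 lines the riser was SDCBP. The fall there was of a syndecan with a mean under 100, by 1.04 and 0.55 on the log2 scale. In all, 1 rose and 1 fell in the RelB-labelled and p50 lines, 2 rose in the p52 knockout and 1 rose in cRel-labelled libraries. The shares called were 66.7%, 66.7%, 66.7% and 33.3% of the list in that order, beside 67.8%, 36.7%, 50.8% and 6.09% of all genes. In RelB-labelled libraries the share of the list thus lies near that of all genes. In the p50 knockout 0 fell without control library 3. In the RelA knockout 0 of 3 passed in limma, edgeR or DESeq2, with 1 at an unadjusted p under 0.05.

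PRDM1 belongs to a family of zinc-finger factors. Of 6 other PRDM genes tested, 1 rose and 3 fell in the p52 knockout and 2 fell in RelB-labelled libraries, with medians of -0.10 and -0.15. The shares called were 66.7% and 33.3% of the list, beside 50.8% and 67.8% of all genes, so the share in RelB-labelled libraries lies below that of all genes. PRDM2 rose by 0.48 and PRDM10 and PRDM11 fell by 0.45 and 0.51 in the p52 knockout, and PRDM10 and PRDM4 fell by 0.49 and 0.48 in RelB-labelled libraries. In the cRel-labelled, p50 and RelA lines 0 of 6 passed in limma, edgeR or DESeq2, with 1, 0 and 0 at an unadjusted p under 0.05. Beside the p50 results, 12 of 13 mitochondrially encoded transcripts fell in that knockout, where 19.6% of all genes fell. Their median was -0.85, and 3 of 13 passed without p50 library 2. These transcripts took 1.85 to 3.55% of all values there and 3.68 to 5.03% in control libraries. The part of this difference in the p50 results was not tested. In the p52 knockout 1 of 13 fell (0 to 5 with 1 library left out, 0 without control library 3), and in RelB-labelled libraries 2 rose. The shares called in these 2 lines were 7.69% and 15.4% of the list, below the 50.8% and 67.8% of all genes. In the cRel-labelled and RelA lines 0 passed in limma, edgeR or DESeq2, with 0 at an unadjusted p under 0.05. The monocyte-associated receptor gene CSF1R rose by 0.94 in RelB-labelled, 0.71 in p52 knockout and 0.74 in p50 knockout libraries, the lines in which SDC1 rose. ITGAM rose by 0.68, 0.97 and 0.79 in the same order, and most in cRel-labelled libraries, by 1.04 (adjusted p = 4.4e-06, limma), where SDC1 did not pass the test (0.06, adjusted p = 0.62). The 7 monocyte markers in the table summed to 909.9 to 983 in RelB-labelled, 826 to 906 in p50 knockout and 841 to 944 in p52 knockout libraries, against 519 to 541 in control libraries. Of them 4 were under 10 in every library, and CD14, the defining one, was at most 3.16. The 7 T-cell and NK-cell markers in the table summed to 682 to 758 in RelB-labelled and 333 to 363 in cRel-labelled libraries, against 416 to 556 in control libraries. Their sums were 446 to 474 in p50, 493 to 560 in p52 and 452 to 528 in RelA knockout libraries.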

How the data were processed

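The submitters' processing notes name STAR (2.5.2b), featureCounts (1.5.1), DESeq2 (1.14.1) and GRCh37. No strand setting or annotation release is stated, so reads of overlapping genes may be shared. The deposited table holds a signal: gene counts that the authors divided by a size factor per library. Dividing by each library's smallest step gave whole reads for 100% of values within 0.001 of a whole number. Depth was 15179664 to 37473129 reads a library, so at the fewest reads (216 for PRDM1) counting error alone is 6.80% of the value. Within groups, libraries differed by more than sampling noise (chi-square per gene 3.29 to 33.3).

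The main test was limma 3.58.1 (R 4.3.3), with the intensity trend, on log2(value + 1) in 1 fit of all 18 libraries, for 12381 genes with a mean of at least 10. Fold changes are on that scale. P-values were adjusted over all tested genes in each comparison. Levels per kilobase used exon lengths of GENCODE 29, with the exons of all transcripts of a gene joined. The lengths were 4957 bases for FKBP11, 3796 for DERL3 and 2273 for MZB1. A gene whose main transcript is shorter than this length is given too low a level. Recovered reads were tested with edgeR 4.0.16 and DESeq2 1.42.0 as alternatives, beside other pseudocounts, filters, quantile normalization, fits of compared groups only, a replicate block, a length correction chosen after seeing the data, and leaving out each library. The fit was tested on simulated data. Replicate numbers were not treated as pairs: in 0 of the 5 lines did all 3 same-numbered libraries deviate together with control (correlation over 0.1). For libraries 1, 2 and 3 the correlations were 0.062, 0.15 and 0.40 in p52 and 0.093, 0.058 and 0.13 in RelB-labelled libraries. They were 0.089, -0.084 and -0.099 in RelA libraries and below 0 throughout in cRel-labelled and p50 libraries. A shared part by replicate number is therefore not excluded.

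Genes named from each of 14 lists are up to 3 per line with the largest change among those called with a mean of at least 100, and for PRDM1, IRF4 and XBP1 the 5 genes of highest Pearson r. Of the genes so selected, 1 is not reported here, nor are those of the B-cell marker and mitochondrial lists, which are given as counts or sums. The 7 genes and the lists were chosen with earlier results of these data known.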

Additional observations from a re-analysis of the deposited data

How the results depend on the processing

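Each result was recomputed under 28 alternatives. Of 980 values of the 7 genes against control, 917 kept their direction and side of the threshold, 34 lost and 8 gained the call and 21 turned round; of 1960 between lines, 1879 kept both, 35 lost and 25 gained the call and 21 turned round. Every value that turned round belonged to a difference that did not pass the test as reported. The calls of PRDM1 and SDC1 in the p50, p52 and RelB-labelled lines, of DERL3 in the p50 and p52 lines, of MZB1 in the p50 line and of FKBP11 in the p52, RelA and RelB-labelled lines held under all 28. Of 3920 counts of list genes, 211 moved by over 1.5 times. Where a value changed, the cause was not tested. Fits with a library left out also hold fewer samples. Counting error at the fewest reads was largest for PRDM1 among the 7 genes, at 6.80% of the value with 216 reads. Those reads were in RelB-labelled library 1, of a line whose PRDM1 call held under all 28. The part of depth in the changed calls was not tested.

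Under quantile normalization the log2 fold change of IRF4 was 0.12 in the p50 knockout, 0.074 in the p52 knockout, 0.31 in the RelA knockout (now passing, adjusted p = 0.035) and 0.018 for cRel-labelled over RelB-labelled libraries. XBP1 was -0.21 in the p50 knockout (adjusted p = 0.15, limma), 0.030 in RelB-labelled libraries, -0.042 for cRel-labelled over RelB-labelled and -0.060 for RelA over RelB-labelled libraries, MZB1 was 0.048 in RelB-labelled libraries, and FKBP11 was 0.0051 for cRel-labelled over p50. On recovered reads, IRF4 by edgeR was 0.012 in the p50 knockout, 0.016 in the p52 knockout and -0.0038 for p50 over p52, and by DESeq2 0.0098 in the p52 knockout, -0.010 for p50 over p52 and 0.22 in the RelA knockout (adjusted p = 0.036). The length correction gave -0.0073 for IRF4 in p50 over p52, 0.026 and 0.0090 for XBP1 in cRel-labelled and RelA libraries, and 0.040 for MZB1 in RelB-labelled libraries. In fits of the compared groups alone, 2 of the 7 genes passed in the RelA knockout.

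The replicate block, which the main test left out, gave 0.22 for IRF4 in the RelA knockout (adjusted p = 0.044, limma). This was the only call against control among the 7 genes that it changed. Genes called numbered 940 in cRel-labelled, 4870 in p50, 6557 in p52, 834 in RelA and 8557 in RelB-labelled libraries.

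With 1 library left out at a time, 448 to 926 genes were called in cRel-labelled and 413 to 849 in RelA knockout libraries, and 0 to 4 and 1 to 5 of the 7 genes. Against control, PRDM1 ranged from -0.43 to -0.31 in cRel-labelled and from 0.32 to 0.44 in RelA libraries. IRF4 ranged from -0.063 to 0.026 in p50, from -0.079 to 0.091 in p52 and from 0.16 to 0.25 in RelA libraries. XBP1 ranged from -0.070 to 0.025 in cRel-labelled, from -0.38 to -0.17 in p50 and from -0.093 to 0.15 in p52 libraries, and MZB1 from -0.13 to 0.035 in RelB-labelled libraries. Between lines, IRF4 ranged from -0.094 to 0.075 for p50 over p52 and from -0.015 to 0.16 for p52 over RelB-labelled. XBP1 ranged from -0.031 to 0.064 for cRel-labelled over RelA, from -0.17 to 0.070 for cRel-labelled over p52, from -0.053 to 0.19 for p52 over RelA and from -0.0091 to 0.23 for p52 over RelB-labelled. MZB1 ranged from -0.039 to 0.074 for cRel-labelled over RelA and from -0.11 to 0.0014 for p50 over RelA, and FKBP11 from -0.051 to 0.018 for cRel-labelled over p50 and from -0.10 to 0.00033 for RelA over RelB-labelled.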
